A study of Mus musculus with 12 samples.

Results

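Dmrta2 overexpression was compared with control siRNAs in the medial telencephalon of CD1 mouse embryos, on 3 arrays against 3 arrays. All genes that could be named through the RefSeq accession of their probe, and whose probe exceeded background clearly in 3 or more of the 12 arrays, were members of the comparison. They numbered 15370 of 15370 genes that passed this filter in the series, and the comparison used 6 of the 12 arrays. Embryos were electroporated at E11.5 with an expression vector for nuclear EGFP together with control siRNAs, with one of 2 siRNA sets against Dmrt3 and Dmrta2, or with an expression plasmid for Dmrta2. Cells carrying GFP were sorted 24 hours later, and 0.1 ug of RNA was labelled for each one-colour Agilent array. Each of the 4 groups had 3 replicates, 1 on each of 3 slides, and each group held the same position on every slide, so group and position cannot be told apart. The only control was control siRNAs. Arrays with an empty expression plasmid were not analysed here, so siRNA against plasmid, and Dmrta2 against no Dmrta2, changed together. The promoter that drives the plasmid and the number of embryos per array are not given in the sources used here, so p-values measure the spread between arrays.

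Dmrta2 and Dmrt3 encode DM-domain transcription factors, which bind DNA through a zinc finger module shared with the sex-determining protein Dmrt1. Both are expressed in the medial and dorsal part of the embryonic telencephalon, in progenitors next to the cortical hem. The hem is a dorsal midline source of Wnt and BMP ligands, lies beside the roof plate and choroid plexus, and gives rise to Cajal-Retzius neurons of the cortical marginal zone.

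Levels are log2 signals relative to the 75th percentile of the array, so a level of 0 is the signal of a probe at that percentile and negative levels lie below it. Differences are log2 overexpression minus control with the standard error (SE) of a limma fit over all 12 arrays in which the slide was a block. A gene was called when its Benjamini-Hochberg adjusted p over all 15370 genes was under 0.05. Between 67.1% and 72.2% of spots were well above background on each array. The cells carried the telencephalic identity of the label. All 10 progenitor markers of the telencephalon, Emx1 and Emx2 among them, were well above background on all 6 arrays, and their summed linear level ran from 265 to 297 on control arrays and from 246 to 288 on the arrays labelled overexpression.

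The single Dmrta2 probe went against the label. It stood at 2.72, 2.37 and 2.61 on the control arrays of slides 1, 2 and 3, and at 2.10, 2.18 and 1.93 on the arrays labelled overexpression. All 3 arrays labelled overexpression were therefore below all 3 controls, with differences of -0.62, -0.19 and -0.68 on slides 1, 2 and 3. The difference was -0.49 ± 0.14 and did not pass the test (limma, adjusted p = 0.33). An exact two-sided permutation test of the 6 values gave p = 0.1, the smallest that 3 against 3 can give. Against the average of both siRNA sets, the probe on the arrays labelled overexpression differed by -0.03 ± 0.12 (limma, adjusted p = 0.904). Sets 1 and 2 themselves differed from control by -0.61 and -0.31, and neither difference was called. Whether the probe matches sequence that the plasmid carries is not given in the sources used here, so a transcript made from the plasmid may or may not be seen by it. The arrays are called the overexpression-labelled arrays below for that reason, and directions drawn from them carry the same limit. Dmrt3 differed by -0.07 ± 0.16. Of the 9 Dmrt genes tested, 0 were called, 6 lay below control and 3 above, and Dmrta2 was the only one whose groups did not overlap.

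Promoter sequences are shown for Dmrta2, whose probe was lower on every slide, and for Lamp5, the called gene with the largest fitted difference, whose controls were at background, and for Ecel1, the one with the largest among called genes well above background on all 6 arrays. They are RefSeq sequences of GRCm38.p6, 250 bases before to 50 bases after an annotated start, read 5′ to 3′ on the gene's strand. The letters ACAATGT, or ACATTGT as the reverse complement, form the core that DM-domain proteins are known to bind, and are in capitals where present. Dmrta2 lies on the plus strand at chr4:109977775-109978074. Lamp5 has 2 listed starts on the plus strand, at chr2:136052089-136052388 and chr2:136057498-136057797. Ecel1 lies on the minus strand at chr1:87156307-87156606.
Dmrta2: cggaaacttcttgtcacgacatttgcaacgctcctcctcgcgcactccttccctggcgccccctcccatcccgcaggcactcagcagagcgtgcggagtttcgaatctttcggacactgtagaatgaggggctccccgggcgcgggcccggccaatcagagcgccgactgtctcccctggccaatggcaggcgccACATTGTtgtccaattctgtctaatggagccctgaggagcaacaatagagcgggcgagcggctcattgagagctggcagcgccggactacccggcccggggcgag
Lamp5, start 1: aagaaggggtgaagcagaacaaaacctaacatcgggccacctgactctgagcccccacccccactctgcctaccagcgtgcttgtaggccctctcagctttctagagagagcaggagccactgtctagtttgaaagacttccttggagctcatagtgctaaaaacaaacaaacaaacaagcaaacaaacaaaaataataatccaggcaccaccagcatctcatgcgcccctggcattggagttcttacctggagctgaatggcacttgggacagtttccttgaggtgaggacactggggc
Lamp5, start 2: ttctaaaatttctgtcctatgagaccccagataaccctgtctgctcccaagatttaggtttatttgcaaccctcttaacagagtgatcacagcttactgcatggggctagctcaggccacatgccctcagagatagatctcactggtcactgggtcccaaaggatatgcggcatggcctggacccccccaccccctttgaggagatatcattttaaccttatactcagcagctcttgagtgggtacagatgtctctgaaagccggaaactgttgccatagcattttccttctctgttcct
Ecel1: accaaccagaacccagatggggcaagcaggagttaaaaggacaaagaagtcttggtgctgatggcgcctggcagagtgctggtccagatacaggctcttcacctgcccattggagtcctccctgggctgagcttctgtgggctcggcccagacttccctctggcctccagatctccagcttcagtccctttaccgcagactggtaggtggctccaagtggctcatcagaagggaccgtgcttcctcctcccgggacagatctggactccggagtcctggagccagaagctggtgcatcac
The Dmrta2 promoter held the core letters, beginning at position -55 relative to the start, and the Lamp5 and Ecel1 promoters did not. Of the 56 genes called higher, 49 had a promoter in the table and 0 of these held ACAATGT or ACATTGT. Among all genes tested, 12212 had a promoter and 2.10% held the letters. With ACANTGT, which covers both strands by itself and includes the first core, 1 of the 49 genes (Aif1, a calcium-binding protein of microglia) and 5.44% of all tested genes held a match. Binding was not measured here.

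The comparison asks which genes differ between medial telencephalic cells labelled Dmrta2 overexpression and those given control siRNAs. It cannot separate Dmrta2 from plasmid against siRNA, or from position on the slide. Of the genes tested, 56 were called and all 56 were higher in the overexpression-labelled arrays, which is 0.364% of 15370. None was called lower (limma, 0%), while 765 genes were higher and 276 lower at an unadjusted p under 0.05, where chance alone gives about 768 in all. All 3 overexpression-labelled arrays lay above all 3 controls for 910 genes (5.92%) and below them for 263 genes (1.71%). All 56 called genes were in the first class, and 55 of them had a positive difference on each slide; the remaining gene, Adamtsl2, had no value on slide 2. Their median difference was 1.57, with 44 of the 56 over 2-fold, and the median was 1.77, 1.46 and 1.53 on slides 1, 2 and 3. Leaving out 1 array gave between 11 and 57 calls, with the lowest counts of 11 without control replicate 1 and of 12, 18 and 22 without overexpression replicates 3, 1 and 2. Without slide 1 it was 0, without slide 3 it was 1, and with only the 6 compared arrays and the slide block it was 2. Without the slide block 43 genes were called, 38 of them among the 56. The 18 genes lost were AI467606, Ajap1, Ass1, Cx3cl1, Elfn2, Etv5, Fxyd5, Gpha2, Mest, Msx1, Mylk, Nbl1, Resp18, Sulf2, Tgfb1, Trim62, Unc5b and Urah.

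**Figure D1:**
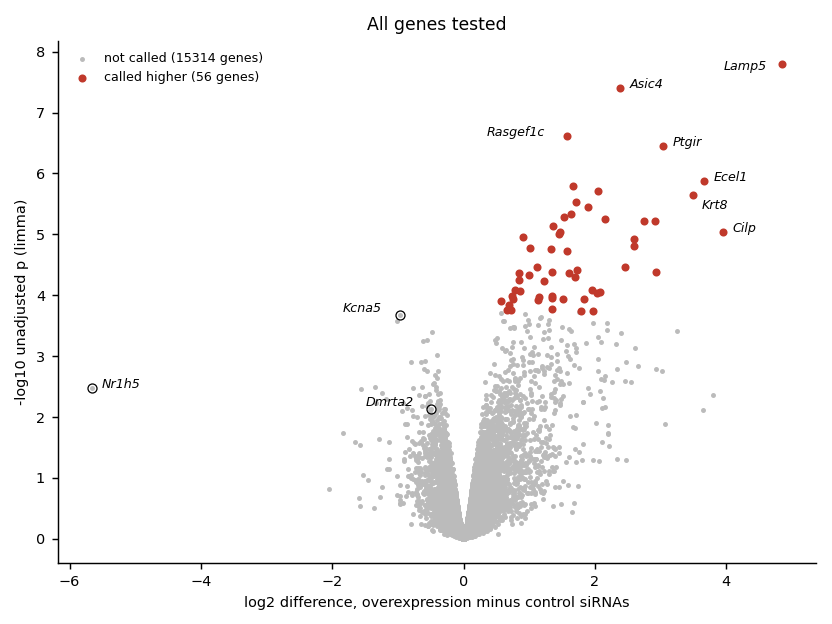
Each point is 1 of 15370 genes, with the log2 difference between overexpression-labelled and control siRNA arrays on the x axis and the -log10 unadjusted limma p on the y axis. The 56 called genes, in red, all lie right of 0, while Kcna5 (-0.96), Nr1h5 (-5.66) and Dmrta2 (-0.49), circled, lie left of 0 and were not called. Nr1h5 was well above background on only 1 overexpression-labelled array, and Kcna5 turned to 0.47 with the mean of its kept probes.

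Among called genes, clone names left out, the 15 with the largest fitted differences are described first, in an order that is not a ranking where the controls were at background. Lamp5, a brain-restricted member of the lysosome-associated membrane protein family that marks a class of cortical interneurons in the adult, stood at -8.23, -8.02 and -7.25 on control arrays and at -3.21, -2.95 and -2.80 on overexpression-labelled arrays. The controls were not well above background and the overexpression-labelled arrays all were. The measured difference was 4.85 ± 0.23 (adjusted p = 0.000249), and since the controls give only a bound, Lamp5 was at least 9.98-fold higher, a bound set against the lowest signal that counted as well above background on each control array. The other 3 tested members of its family, Lamp1, Lamp2 and Lamp3, lay between -0.11 and 0.09 and were not called. With normexp background correction, which adds an offset of 50 to every signal, the Lamp5 difference was 1.25 and passed the test.

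Ecel1, a neuronal membrane metallopeptidase related to endothelin-converting enzyme, had the largest difference among called genes that were well above background on all 6 arrays. It stood at -3.39, -2.95 and -2.84 on control arrays and at 0.67, 0.10 and 1.05 on overexpression-labelled arrays, a gap several times the spread within either group. The difference was 3.67 ± 0.30, or 12.7-fold (adjusted p = 0.00404). Of the 9 M13 peptidase and endothelin genes tested, Ecel1 was the only one called, against 0.364% of all genes.

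Fam20a, a Golgi pseudokinase that activates the secretory pathway kinase Fam20C, stood at -4.71, -4.29 and -4.70 on control arrays and at -1.77, -2.09 and -2.02 on overexpression-labelled arrays. The groups were far apart on all 3 slides, and the difference was 2.60 ± 0.29, or 6.06-fold (adjusted p = 0.0107). Of 9 FAM20 and FJX secretory kinase genes tested, Fam20a was the only one called, against 0.364% of all genes. Asic4, a member of the acid-sensing ion channel family, stood at -4.93, -5.20 and -4.83 on control arrays and at -2.57, -2.60 and -2.64 on overexpression-labelled arrays. Its overexpression-labelled values were nearly equal, and its difference of 2.39 ± 0.13, or 5.23-fold, was called in every fit that left out 1 of the 12 arrays. Hrh3, the presynaptic histamine receptor, rose 4.46-fold (2.16 ± 0.21), from -2.78, -2.18 and -2.60 to -0.41, -0.37 and -0.32.

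Lrfn2 and Cbln4, which act at synapses, were also among these 15. Lrfn2, a leucine-rich repeat adhesion protein of excitatory synapses, stood at -5.44, -5.74 and -5.45 on control arrays and at -3.25, -2.95 and -3.04 on overexpression-labelled arrays, a 5.51-fold rise. Cbln4, a secreted synaptic organiser of the cerebellin family, stood at -5.64, -4.73 and -5.01 on control arrays and at -3.20, -3.12 and -2.96 on overexpression-labelled arrays, a 4.09-fold rise. Neither gene's groups overlapped, and Cbln4 varied more among controls than among overexpression-labelled arrays. Within the list of 26 leucine-rich repeat adhesion genes, Lrfn2 and Elfn2 (1.34 ± 0.15) were called, against 0.364% of all genes. The list's median was 0.11, and 17 of the 26 lay above control.

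The rest of the 15 had other known roles. Cilp, a cartilage matrix protein, was at least 7.53-fold higher, with control levels of -7.35, -6.46 and -8.12 and overexpression-labelled levels of -3.57, -3.50 and -2.99. Krt8, a keratin of simple epithelia, was at least 3.57-fold higher, with control levels of -7.93, -8.34 and -7.62 and overexpression-labelled levels of -4.43, -4.69 and -4.28. For both genes the controls were not well above background. The same held for Ptgir, the prostacyclin receptor (at least 2.39-fold), Tex14, a protein of germ-cell bridges (at least 2.93-fold), Padi3, a peptidylarginine deiminase (at least 2.28-fold), Bnc1, a zinc finger protein of keratinocytes (at least 1.63-fold), and Cytl1, a small secreted protein (at least 1.91-fold). Adamtsl2, a secreted glycoprotein of fibrillin-rich matrix, stood at -5.09, -4.19 and -4.33 on control arrays and at -2.11 and -1.63 on overexpression-labelled arrays 1 and 3. The spot on overexpression-labelled array 2 carried an outlier mark and was left out, so its 6.75-fold rise rests on 2 arrays against 3.

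**Figure D2:**
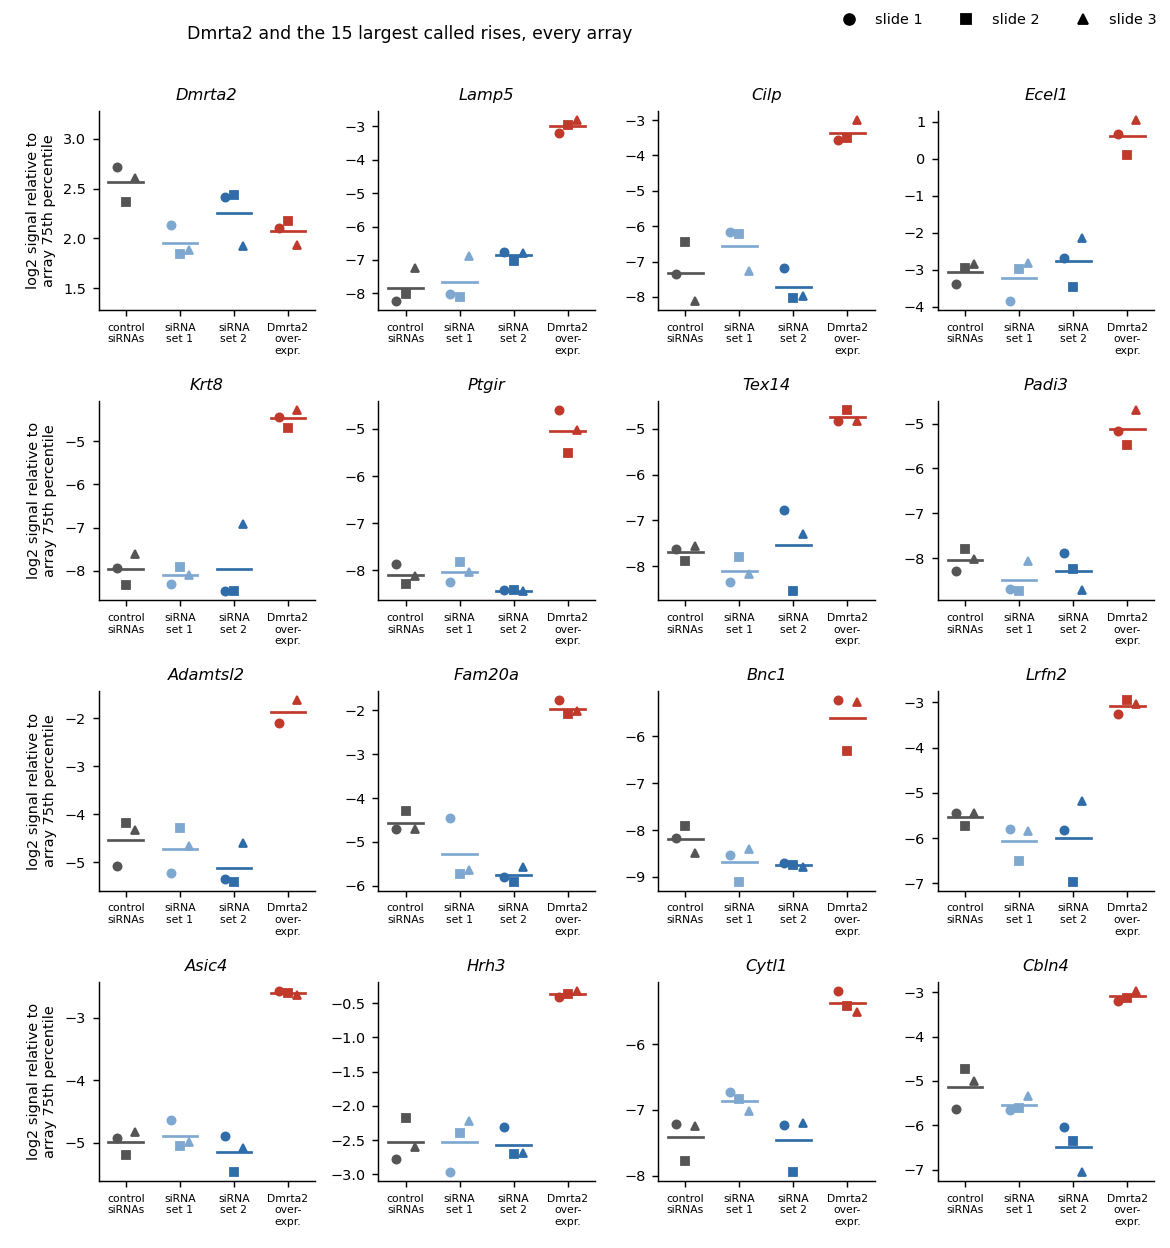
Every array's log2 signal relative to its 75th percentile (y axis, own scale per gene) is shown for Dmrta2 and the 15 called genes (clone names left out) that had the largest fitted differences, by group (x axis). Circles, squares and triangles are slides 1, 2 and 3 and bars are group means. Dmrta2 lies lower on the overexpression-labelled arrays than on control arrays, and the other 15 genes lie higher than in any other group.

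The other 41 called genes had differences from 0.57 (Gpha2, a glycoprotein hormone subunit) to 2.07. AI467606, left out of the 15 because it has only a clone name, had the 2.07, was not well above background on any control array and was at least 2.49-fold higher. Eya2, a transcriptional coactivator without DNA binding of its own, stood at 0.81, 1.09 and 1.32 on control arrays and at 2.41, 2.72 and 2.68 on overexpression-labelled arrays, and rose 2.88-fold. Cacna2d2, an auxiliary subunit of voltage-gated calcium channels, stood at -0.12, 0.26 and 0.29 on control arrays and at 2.06, 1.68 and 1.90 on overexpression-labelled arrays, and rose 3.33-fold. Both are among the brighter called genes, and no array of one group reached the other. Tle6, a Groucho-family corepressor, rose 3.26-fold, the cadherin Cdh22 rose 3.57-fold and the netrin receptor Unc5b rose 2.20-fold. Rasgef1c, a guanine nucleotide exchange factor, and Gng8, a G protein gamma subunit, rose 2.97-fold and 3.19-fold. Enzymes that modify sugars outside or on the way out of the cell included Sulf2, an extracellular heparan sulfate sulfatase (2.53-fold), Chst8, a sulfotransferase (2.34-fold), and Galnt10, which starts O-glycosylation (2.17-fold). Of the 528 tested genes that stood on any of the 35 gene lists, 16 were called (3.03%, against 0.364% of all genes), and the lists were drawn up with earlier results of these data known.

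The same overexpression-labelled arrays were set against the average of both Dmrt siRNA sets, to give each rise relative to cells electroporated with siRNAs against Dmrt3 and Dmrta2. This comparison shares the overexpression-labelled arrays with the first. The 56 genes were selected for high values on those arrays, so a rise here is partly fixed in advance and is not independent support. It called 302 genes higher (1.96%) and 228 lower (1.48%). Of the 56 genes called against control siRNAs, 45 were also called higher here and 11 were not. Ecel1 (3.59 ± 0.26), Asic4 (2.42 ± 0.11) and Hrh3 (2.18 ± 0.18) were among the 45. So were Lamp5 and Krt8, which were not well above background on any siRNA array, so that no size is given. For Fam20a, Cbln4 and Eya2 it was larger than against control, at 3.56 ± 0.25, 2.92 ± 0.25 and 2.15 ± 0.13, and all 3 had lower means in both siRNA sets than in control (Eya2: -0.37 in set 1 and -0.88 in set 2). In all, 15 of the 56 had a lower mean in both siRNA sets than in control, 21 a higher mean in both, and 20 were higher in one and lower in the other.

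The 11 genes that were not called against the siRNA average were Aif1, C1qc, Cx3cr1, Tyrobp, Vav1, Ptpn6, Fxyd5, Mylk, Tmbim1, Gpha2 and AI467606. Their differences from the siRNA average ran from 0.19 ± 0.19 (Vav1) to 0.57 ± 0.19 (Aif1). By textbook role, Aif1, C1qc, Cx3cr1 and Tyrobp are microglial and macrophage genes, and Vav1 and Ptpn6 encode signalling proteins of blood cells. For each of these 6 genes, both siRNA sets also stood above control, set 2 more than set 1. Both sets were above control for the rest of the 11 as well. Set 2 against control was itself called higher for all of the 11 except Gpha2, and set 1 for Fxyd5 and Mylk.

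**Figure D3:**
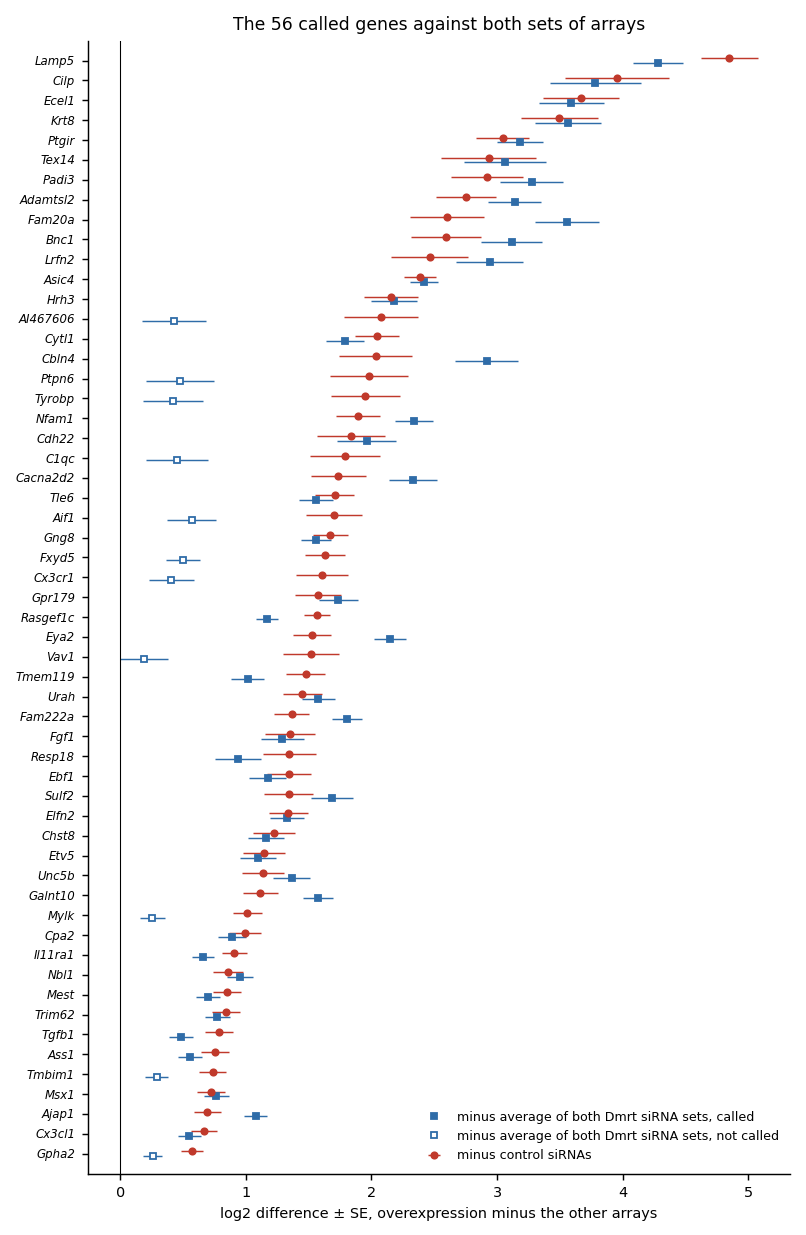
For each of the 56 called genes (y axis), the log2 difference ± SE of the overexpression-labelled arrays from control siRNAs (red circles) and from the average of both Dmrt siRNA sets (blue squares, open where not called) is on the x axis. The 45 filled squares include Ecel1 at 3.59, and genes at background in the siRNA sets, such as Lamp5, are drawn at their measured signal, and the 11 open squares lie between 0.19 and 0.57.

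FGF ligands pattern the rostral telencephalon and induce ETS factors and Sprouty inhibitors. The list of FGF signalling genes held 1 called gene of 19 tested, against 0.364% of all genes. Etv5, an ETS factor induced by FGF, stood at 1.02, 1.67 and 0.34 on control arrays and at 2.03, 2.46 and 1.98 on overexpression-labelled arrays. The groups did not overlap although the controls spread widely by slide, and the rise was 2.21-fold (1.14 ± 0.17, adjusted p = 0.0369; 0.364 without the slide block and 0.0132 to 0.571 over 26 alternatives). It was called in 3 of the 12 fits that left out 1 array. Its close relative Etv4 showed 1.17 ± 0.19 and missed the threshold (adjusted p = 0.0571), with control levels of -0.69, -0.20 and -1.16 and overexpression-labelled levels of 0.44, 0.63 and 0.41. The feedback inhibitor Spry1 (0.57 ± 0.13) and the ligand Fgf15 (0.69 ± 0.16) had all 3 overexpression-labelled arrays above all 3 controls and were not called. These 3 genes were chosen after their values were seen. Over the list, 15 of 19 genes lay above control and 4 below, and the median was 0.18 against 0.01 for all genes tested. For 5 of the 19 all overexpression-labelled arrays were above all controls, against 5.92% of all genes. Against the siRNA average, Etv5 (1.09 ± 0.14), Etv4, Spry1 (0.88 ± 0.12) and Fgf15 (1.11 ± 0.14) were called higher and 1 of the 19 was called lower. Fgf1, an FGF ligand outside the list, was called at 2.55-fold (1.35 ± 0.20, limma adjusted p = 0.0372). It was well above background on 2 of the 3 control arrays and was called in 1 of the 12 fits that left out 1 array. Against the siRNA average Fgf1 was called higher as well (1.29 ± 0.17).

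BMP ligands and response genes included 1 called gene of 17, against 0.364% of all genes. Msx1, a homeobox gene that BMP signalling induces at the dorsal midline, stood at -2.79, -2.32 and -2.29 on control arrays and at -1.94, -1.73 and -1.56 on overexpression-labelled arrays, a 1.65-fold rise (0.72 ± 0.11, adjusted p = 0.0493). Leaving out any 1 of the 12 arrays ended this call, with adjusted p above 0.05 each time. The ligands Bmp2 (1.02 ± 0.20), Bmp4 (0.84 ± 0.28) and Bmp7 (0.58 ± 0.19) had no overlap between the groups and were not called. They too were chosen after their values were seen. Bmp2 stood at -3.28, -3.67 and -3.93 on control arrays and at -2.60, -2.48 and -2.76 on overexpression-labelled arrays, and it was called higher against the siRNA average (2.06 ± 0.18). Nbl1, a secreted BMP antagonist outside the list, was called at 1.81-fold. The list's median was 0.38, with 13 genes above control and 4 below, and 7 of the 17 had all overexpression-labelled arrays above all controls, against 5.92% of all genes.

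Wnt ligands and R-spondins, the secreted signals of the cortical hem, had 0 of 11 genes called. Of 17 Wnt target genes 0 were called, 14 lay above control and 5 did so with no overlap. All 11 secreted signals lay above control, with a median of 0.50. For 2 of the 11 all overexpression-labelled arrays were above all controls, against 5.92% of all genes. Rspo1, an enhancer of Wnt signalling, stood at 1.99, 2.73 and 2.39 on control arrays and at 3.02, 3.09 and 2.91 on overexpression-labelled arrays (0.64 ± 0.18, adjusted p = 0.336). Wnt3a, the hem ligand needed for hippocampal growth, differed by 0.95 ± 0.30 and Wnt9a by 0.79 ± 0.28. The list's median was 0.92, 0.37 and 0.28 on slides 1, 2 and 3, and 0.20 with slide 1 left out. Of 12 choroid plexus and roof plate genes, 0 were called, 12 lay above control and 5 did so with no overlap. The median of the 12 was 0.77, with 1.48, 0.36 and 0.27 on the 3 slides and 0.25 without control replicate 1. Foxj1, the regulator of motile cilia, differed by 0.73 ± 0.18 and the water channel Aqp1 by 0.72 ± 0.20, each with no overlap. The choroid plexus product Ttr spread too widely for its 1.69 ± 1.38 to be told from 0.

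Regulators of dorsal and ventral telencephalic fate showed few differences. Of 20 dorsal regulators 0 were called and the median was -0.03. Pax6, the dorsal progenitor regulator, stood at -0.50, -0.31 and -0.41 on control arrays and at -0.99, -0.83 and -0.78 on overexpression-labelled arrays, all 3 of them lower, with a difference of -0.46 ± 0.22 (adjusted p = 0.812). Against the siRNA average, where Pax6 was higher than in control, the difference was -1.52 ± 0.19 and was called (adjusted p = 0.00543). Lmx1a, a hem and roof plate regulator, differed by 0.81 ± 0.31. Of 21 ventral regulators, Ebf1 was the only one called, against 0.364% of all genes, and the median was 0.17.

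Cajal-Retzius genes included Ebf1 as the single called gene of 13, against 0.364% of all genes. Ebf1, a helix-loop-helix factor of early neurons, stood at -4.13, -3.66 and -4.04 on control arrays and at -2.50, -2.79 and -2.52 on overexpression-labelled arrays, a 2.54-fold rise (1.34 ± 0.17, adjusted p = 0.021). It was called in 8 of the 12 fits that left out 1 array, and not without control replicate 1 or 3 or overexpression replicate 1 or 3. Lhx5, a LIM homeobox gene of the hem and of Cajal-Retzius cells, stood at -1.63, -0.93 and -1.43 on control arrays and at 0.12, 0.06 and 0.08 on overexpression-labelled arrays, and its 1.42 ± 0.28 was not called (adjusted p = 0.119). Trp73, the p53 relative that marks Cajal-Retzius neurons, differed by 0.92 ± 0.27 without overlap and was not called. Lhx5 and Trp73 were chosen after their values were seen. Reln, the secreted protein that defines these neurons, overlapped between groups. The list's median was 0.52 and 10 of 13 genes lay above control. For 6 of 13 all overexpression-labelled arrays were above all controls, against 5.92% of all genes. Among the other neuronal and proliferative lists, 0 of 25 postmitotic neuron genes, 0 of 20 neural progenitor genes, 0 of 22 DNA replication genes and 0 of 22 mitosis genes were called. Their medians were -0.10, -0.01, -0.06 and -0.03, and each list's median had different signs on different slides.

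**Figure D4:**
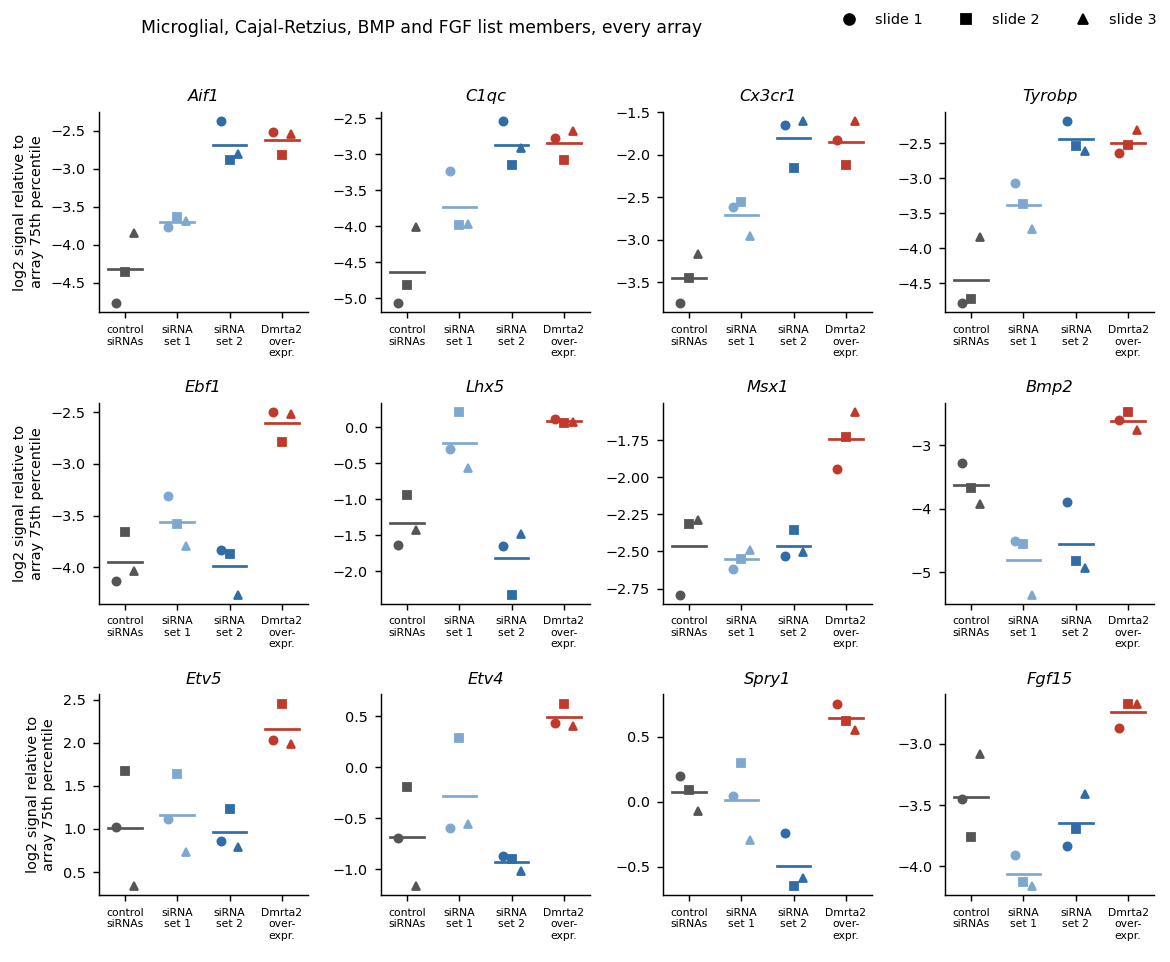
Every array's log2 signal relative to its 75th percentile (y axis, own scale per gene) is shown by group (x axis) for 4 microglial, 2 Cajal-Retzius, 2 BMP and 4 FGF list genes, with circles, squares and triangles for slides 1, 2 and 3 and bars for means. Aif1, C1qc, Cx3cr1 and Tyrobp are also higher in both siRNA sets than in control, while Msx1, Spry1 and Etv5 are highest on overexpression-labelled arrays.

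Cell types other than neural progenitors were followed through their markers. More cells of a type and more RNA per cell cannot be told apart in these sorted pools. Of 12 microglia and macrophage markers tested 4 were called, 11 lay above control, 9 did so with no overlap, and the median was 1.58. Over all genes tested, 0.364% were called higher, 52.5% lay above control and 5.92% did so with no overlap. Tyrobp, the adaptor of microglial receptors, stood at -4.78, -4.72 and -3.84 on control arrays and at -2.64, -2.53 and -2.31 on overexpression-labelled arrays, a 3.87-fold rise. Cx3cr1, the fractalkine receptor, stood at -3.75, -3.45 and -3.17 on control arrays and at -1.82, -2.12 and -1.60 on overexpression-labelled arrays, a 3.04-fold rise. Aif1 rose 3.25-fold and the complement gene C1qc 3.46-fold, and the neuronal ligand of Cx3cr1, Cx3cl1, rose 1.59-fold, a call that was lost without the slide block (adjusted p = 0.169) and with any 1 array left out. None of the 12 was called against the siRNA average, where the median was 0.21, and the medians of sets 1 and 2 against control were 0.69 and 1.54. The 4 calls became 0 when control replicate 1 or 2 or any 1 overexpression replicate was left out, and the median ran from 0.48 with another background correction to 1.79 without control replicate 3.

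The summed linear level of the microglial list overlapped between groups, from 2.45 to 6.08 on control arrays and from 3.48 to 6.48 on overexpression-labelled arrays. Its brightest member was Csf1r, the microglial growth factor receptor, which differed by -0.03 ± 0.16. Without Csf1r the sums ran from 0.432 to 0.646 in control, 0.715 to 0.944 in set 1, 1.15 to 1.48 in set 2 and 1.11 to 1.44 on overexpression-labelled arrays. The part of other cells in the 4 microglial calls, and in those of Vav1, Ptpn6, Nfam1 (an immune receptor, 3.71-fold) and Tmem119 (a microglial membrane protein, 2.78-fold), was not tested. Nfam1 and Tmem119 were called against the siRNA average as well (2.34 ± 0.15 and 1.01 ± 0.13), unlike the 4 list members.

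Erythroid markers had 0 of 8 called, 8 above control and a median of 1.04. Their summed level ran from 2.11 to 4.01 on control arrays and from 5.42 to 11.2 on overexpression-labelled arrays, with 1.89 to 18.8 in set 1 and 3.68 to 8.08 in set 2. The embryonic globin Hba-x differed by 2.22 ± 0.85 and Hba-a1 by 1.17 ± 0.43. Of 11 surface ectoderm markers Krt8 was the only one called, against 0.364% of all genes. Its partner keratin Krt18 (1.02 ± 0.30) and the epidermal factor Grhl3 (1.62 ± 0.48) were higher on all 3 overexpression-labelled arrays and were not called. Both were chosen after their values were seen. The epidermal markers Krt5, Krt14 and Trp63 lay between -0.28 and -0.07. Summed surface ectoderm levels overlapped, from 9.18 to 11.7 in control and from 7.73 to 11.1 on overexpression-labelled arrays. Without their brightest member Trp63 they did not, at 0.539 to 0.890 in control and 0.916 to 1.13 on overexpression-labelled arrays. None of 11 endothelial or 10 mesenchymal markers was called, with medians of 0.49 and 0.58, and their summed levels overlapped between the groups. Without its brightest member Dcn the mesenchymal sum did not, at 0.678 to 0.824 in control and 1.00 to 1.22 on overexpression-labelled arrays. The part of these cells in the called genes was not tested.

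Stress lists gave 0 calls in each of the p53, interferon, immediate early and unfolded protein groups. Of 20 p53 response genes, 17 lay above control and 6 did so with no overlap, against 5.92% of all genes. The genes above control with no overlap were 1 of 16 interferon-stimulated, 1 of 16 immediate early and 0 of 15 unfolded protein response genes. The p53 target Cdkn1a differed by 0.85 ± 0.25 (adjusted p = 0.364). The interferon-stimulated list had a median of 0.42 that was 0.96, -0.54 and 1.69 on slides 1, 2 and 3, so slide 2 went the other way. Cxcl10, an interferon-induced chemokine, was not well above background on any control array, and its overexpression-labelled levels of -5.18, -4.57 and -6.77 were too far apart for a call (3.06 ± 0.98, adjusted p = 0.433).

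On the lower side the smallest adjusted p was 0.0546, for Kcna5, a delayed rectifier potassium channel (-0.96 ± 0.15). This direction held for its brightest probe and turned to 0.47 with the mean of all its kept probes. Its levels were -1.92, -3.43 and -2.08 on control arrays and -2.88, -4.07 and -3.35 on overexpression-labelled arrays, lower on each slide although the groups overlapped across slides. Gca, a calcium-binding protein of granulocytes (-0.49 ± 0.09), and Prdm13, a regulator of neuronal subtype (-0.80 ± 0.17), were lower without overlap and had adjusted p of 0.071 and 0.14. Kcna5 and Gca were also below control in siRNA sets 1 and 2, by -0.80 and -0.96 for Kcna5 and -0.39 and -0.52 for Gca. Set 2 was called lower for both (limma, adjusted p = 0.0281 and 0.0292). From the siRNA average Kcna5 differed by -0.08 ± 0.13, Gca by -0.03 ± 0.07 and Prdm13 by -0.65 ± 0.15, and none was called.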

How the data were processed

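Agilent one-colour arrays were used as deposited. The deposited processed signals are intensities, background-subtracted by Agilent Feature Extraction 10.5.1.1 per the submitters' processing notes and the file headers, which name build mm9. Control spots and spots with outlier marks (136 to 218 per array) were left out, and log2 signals were scaled to each array's 75th percentile, which ran from 572 to 1143. Probes (39429) were named through RefSeq accessions of GRCm38.p6, 26055 of them for 19751 genes; the brightest kept probe stood for a gene. The authors' deposited log2 table matched these values after centring (r at least 0.999 on each array; column medians -0.13 to 0.10), with scale and centring not given in the sources used here, and served as an alternative.

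limma 3.58.1 in R 4.3.3 was fitted over 12 arrays with terms for group and replicate number, leaving 6 residual degrees of freedom; p-values were adjusted by Benjamini-Hochberg and called at 0.05. Replicate numbers coincide with slides. Same-slide overexpression and control arrays deviated together (r = 0.387, 0.286 and 0.148), different-slide pairs less (-0.33 to 0.06). The fit was tested on simulated data. The number of arrays limits precision.

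The named genes were Dmrta2, the 15 called genes with the largest fitted rises (clone, Rik, Gm, LOC and number-only names left out), and called members of the gene lists. For lists without a call, members with small p were named. Further genes were chosen after their values were seen, not all of them marked so. Members and lists were chosen with earlier results of these data known. Alternatives were the fit, background correction, scaling, probe filter, left-out arrays and slides, and the promoter letters.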

Additional observations from a re-analysis of the deposited data

How the results depend on the processing

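The 56 calls, all higher, became 2 with only the 6 compared arrays and the replicate block (2 residual degrees of freedom), and 32 with these arrays and no block. With all 12 arrays and no replicate block 43 were called, a count within 1.5 times of 56. Normexp was run on median signals, since the mean signals named in the plan were not analysed here, with 13668 genes tested; it and an intensity trend each called 1 gene lower. Leaving out 1 array or 1 slide gave 0 to 57 calls, 0 to 57 higher and 0 to 1 lower; without slide 1 there were 0 (582 genes at an unadjusted p under 0.05), and without slide 3, 1. The comparison with the siRNA average had 331 calls in both directions together without the block, 352 without the dim filter and 5 to 645 with an array or slide left out. The Dmrta2 probe difference kept its sign throughout and was -0.19 within slide 2. ACANTGT gave 1 gene in place of 0. Reversed values were those of uncalled genes: Kcna5 was 0.47 with the mean of all kept probes; Csf1r ran from -0.16 to 0.079, and Dmrt3 from -0.29 to 0.10, with 1 array or slide left out. The cause was not tested. Of the 56 genes, 10 were called with any 1 array left out (Asic4, Cytl1, Ecel1, Gng8, Krt8, Lamp5, Nfam1, Ptgir, Rasgef1c and Tle6), and Msx1 and Cx3cl1 in none of these fits.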

Other observations

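Genes outside the lists, chosen after their values were seen, also stood apart without passing the test. Padi2, a relative of the called gene Padi3, was not well above background on control arrays and was at least 4.53-fold higher on overexpression-labelled arrays (3.26 ± 0.57, adjusted p = 0.071). Ptgs1, the enzyme upstream of the prostacyclin whose receptor Ptgir was called, was at least 4.62-fold higher by the same bound (3.03 ± 0.67, adjusted p = 0.163). Tbx3, a T-box repressor, stood at -8.11, -5.28 and -7.84 on control arrays and at -2.36, -4.34 and -3.13 on overexpression-labelled arrays (3.80 ± 0.98, adjusted p = 0.266), with 1 control array well above background. All 3 genes were higher on every overexpression-labelled array than on any control array.

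The nuclear receptor Nr1h5 was well above background on 3 control arrays and on 1 overexpression-labelled array, so its fitted values rest partly on signals at background. It stood at -0.75, -1.51 and -1.09 on control arrays and at -8.47, -8.72 and -3.12 on overexpression-labelled arrays (-5.66 ± 1.39, adjusted p = 0.234). Its difference from the siRNA average was -5.02 ± 1.21 (adjusted p = 0.064).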
